A study of Gallus gallus with 2 samples.

Results

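Stretches of at least 100 kb that lie between neighbouring topologically associating domains (TADs) were examined in the chicken HD3 cell line. HD3 (LSCC-HD3) is a line of erythroid progenitors transformed by a temperature-sensitive avian erythroblastosis virus, and its karyotype is heavily rearranged. Hi-C was carried out on 2 biological replicates of crosslinked cells grown at 37 °C, and no other cell type or treatment was compared. The contacts of both replicates were pooled before TADs were called, so no value has a replicate error, and the number of contacts behind a stretch is unknown. A stretch was taken as the gap between the end of a TAD and the start of the next TAD on the same chromosome, in GalGal5 coordinates counted from 1. Of the 2363 pairs of neighbouring TADs, 546 (23.1%) were separated by at least 100 kb and were kept, 1798 adjoined without a gap, and 19 had a shorter gap. The stretches were thus chosen by the TAD coordinates themselves, and all values on their number, length and neighbours are descriptions and carry no test. The list holds coordinates only, so the identity of the cells could not be checked against markers. No annotation of GalGal5 was used, so whether a stretch is genic, and what its sequence is, were not analysed here.

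Hi-C counts how often pairs of genomic sites are joined by ligation in crosslinked nuclei. A TAD is a segment whose sites contact each other more often than sites outside it, and in vertebrates many TADs are formed by cohesin, which extrudes chromatin loops until it meets CTCF bound to DNA. A caller such as Armatus looks for the set of domains that best explains the local enrichment of contacts and leaves the remaining bins unassigned. A stretch without a TAD is therefore a part of the map where no domain passed the criterion of the caller. It can be chromatin that folds without local domains as well as sequence that gives few contacts, such as repeats or assembly gaps, and the list does not tell these apart.

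The stretches were mostly short, but a few long ones held much of the sequence. The median length was 150 kb, with quartiles at 100 and 350 kb, and the mean was 309 kb. Exactly 100 kb, which is 2 bins of the map, was measured for 192 of the 546 stretches (35.2%), and 100 kb was also the size of 653 of the 2389 TADs (27.3%). A length of at least 500 kb was reached by 91 stretches (16.7%), and these held 49.4% of the summed length. The 24 stretches of at least 1000 kb (4.40%) held 24.0% of it, or 40.6 Mb, and lay on 11 chromosomes. Together the 546 stretches spanned 168.9 Mb. This is 16.8% of the chromosome spans, taken from the first base to the last TAD end (Wilson 95% interval over bins 16.3% to 17.3%). The interval covers counting error only. It treats bins as independent, although each stretch holds at least 2 neighbouring bins, so it is too narrow. The stretches made up 97.9% of the sequence outside TADs within these chromosome spans, on the 26 chromosomes in the list. The remainder was 2.75 Mb before the first TAD on 5 chromosomes and 0.92 Mb in gaps under 100 kb. Sequence past the last TAD end and chromosomes without a listed TAD are not included.

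**Figure D1:**
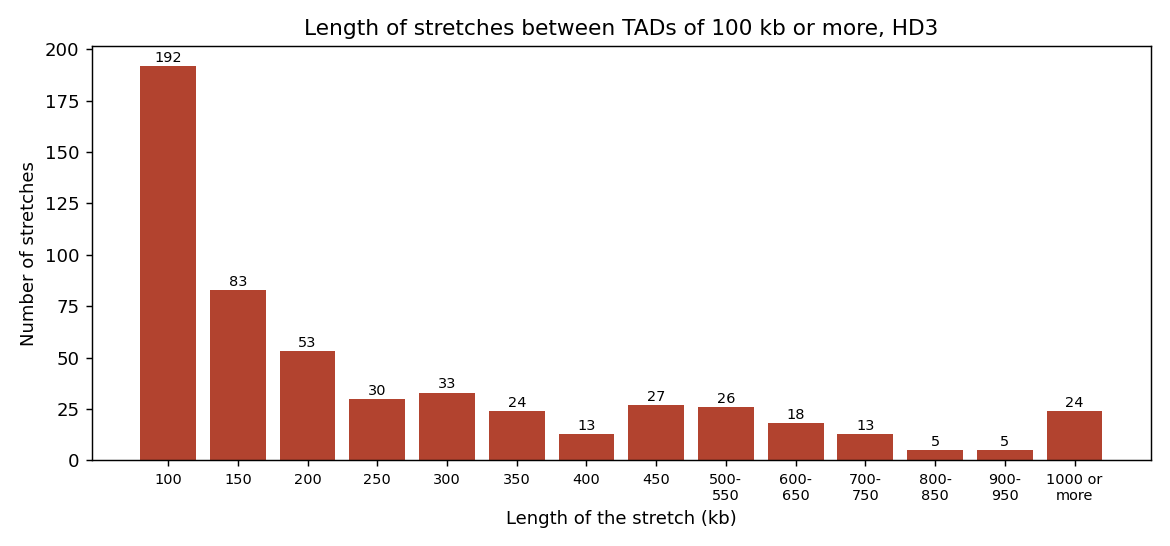
Number of stretches between TADs (y axis) by length in kb (x axis), with lengths of 500 kb and more joined into wider classes. The bar at 100 kb holds 192 of the 546 stretches, and 24 stretches reach 1000 kb or more.

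The longest stretch lay on GGAZ from 73450001 to 78550000 and measured 5100 kb. It followed a TAD of 100 kb and preceded a TAD of 450 kb, and another stretch of 750 kb lay from 80150001 to 80900000, near the last TAD end of GGAZ. No other stretch came near this length. The second longest, of 2550 kb, ran from 23800001 to 26350000 on GGA7, between TADs of 100 and 150 kb. A stretch of 2150 kb on GGA4, from 80550001 to 82700000, lay between TADs of 200 and 150 kb. On GGA3 a stretch of 2050 kb from 60900001 to 62950000 lay between TADs of 100 and 150 kb. Stretches of 2000 kb were measured on GGA7 from 30850001 to 32850000 and on GGA2 from 84350001 to 86350000. The stretch on GGA7 lay between TADs of 200 and 1550 kb, and the one on GGA2 lay between TADs of 250 and 100 kb. The remaining 4 of the 10 longest measured 1850 kb (GGA3, 56950001 to 58800000), 1700 kb (GGA12, 13650001 to 15350000), 1700 kb (GGA2, 98900001 to 100600000) and 1650 kb (GGA2, 74650001 to 76300000). Of these 10 stretches, all but the one on GGA12 lay on GGAZ or on the macrochromosomes GGA2, GGA3, GGA4 and GGA7, and together they held 22.75 Mb (13.5% of the summed length).

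Chromosomes differed widely in how much of them lay in such stretches. Among the 10 macrochromosomes (GGA1 to GGA10), 22.7 ± 6.75 of every 100 neighbouring TAD pairs were separated by a stretch (SD, n = 10 chromosomes), against 17.5 ± 9.59 on the microchromosomes from GGA11 (SD, n = 14). The difference of 5.24 per 100 pairs was within the spread between chromosomes. It was 10.5 when the macrochromosomes were limited to GGA1 to GGA5 and 2.31 when stretches under 200 kb were not counted. These means weigh each chromosome equally. Pooled over pairs, the numbers lay farther apart, with 26.5 per 100 on macrochromosomes (444 of 1677) and 15.8 on microchromosomes (73 of 461). Within the macrochromosomes the number was highest on GGA1, with 31.8 per 100 pairs (128 stretches), and lowest on GGA10, with 12.7 (8 stretches). The share of the span inside stretches was 15.6% ± 7.07 on macrochromosomes and 15.1% ± 9.52 on microchromosomes, so the classes overlapped here too.

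The single chromosomes with the highest and the lowest share were GGAW and GGA17. On GGAW, the female-specific chromosome, 9 stretches of 100 to 400 kb took 40.4% of the span and separated 47.4 of 100 pairs. GGA17 held 40 TADs and 0 stretches of at least 100 kb. On GGAZ, 20 stretches separated 9.71 of 100 pairs, and 10.7% of the span lay in them. The stretch of 5100 kb made up the larger part of their 8.8 Mb, as the median on GGAZ was 100 kb. After GGAW, the share of the span was highest on the microchromosome GGA24 (27.8%), where 5 stretches separated 33.3 of 100 pairs. GGA1 had the most stretches, but none reached 1000 kb. On GGA7 the opposite was measured, as only 16 stretches, 3 of them of at least 1000 kb, took 26.5% of the span, the highest share of any macrochromosome. GGA2 held 6 stretches of at least 1000 kb, GGA3 held 4 and GGA4 held 3.

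**Figure D2:**
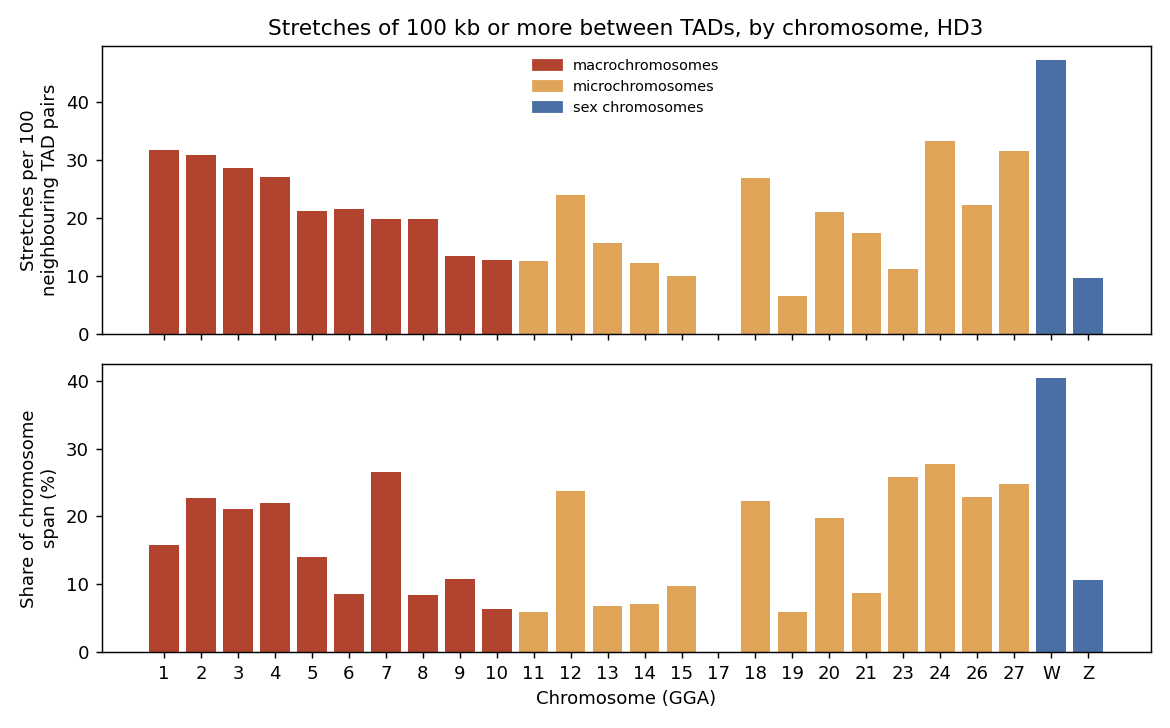
Stretches per 100 pairs of neighbouring TADs (upper panel) and share of the chromosome span inside stretches in percent (lower panel) for each chromosome in the list. GGAW is highest in both panels (47.4 per 100 pairs and 40.4%), and GGA17 has no stretch.

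The longest stretch of a macrochromosome did not follow the size of the chromosome. GGA1 had 2 stretches of 800 kb, from 139900001 to 140700000 and from 158150001 to 158950000, each of them followed by a large TAD, of 2050 and 2700 kb. The longest stretch measured 1100 kb on GGA5 (45500001 to 46600000), 600 kb on GGA8 (10450001 to 11050000) and 950 kb on GGA9 (6050001 to 7000000). On GGA6 it was 350 kb (27700001 to 28050000) and on GGA10 it was likewise 350 kb (12800001 to 13150000), where the TAD that followed spanned 3500 kb. GGA2, GGA3, GGA4 and GGA7, whose longest stretches are given above, all reached 2000 kb.

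The stretches were not spread evenly along a chromosome but followed one another closely. For 419 of the 546 stretches (76.7%), the neighbouring pair of TADs on at least 1 side was separated by a stretch as well. Of the 1798 adjoining pairs, 424 (23.6%) had a stretch next to them in this way. Counted in 1 direction, the pair that followed a stretch was again a stretch in 53.4% of cases, and the pair that followed an adjoining pair was a stretch in 14.2%, where 23.1% of all pairs are stretches. The pattern was present within single chromosomes. A stretch was next to another in 73.4% of cases on GGA1, 88.4% on GGA2, 78.1% on GGA3 and 83.3% on GGA4, against 37.1%, 25.5%, 29.7% and 25% for adjoining pairs on these chromosomes. On GGA11, GGA13, GGA14, GGA21 and GGAZ the share was 50% or less. It was above the share for adjoining pairs on each of these, which was 16.7%, 23.8%, 18.6%, 31.6% and 13.5%. On the microchromosomes among them the share rests on few stretches, with 3 of 6 on GGA11, 4 of 8 on GGA13, 2 of 6 on GGA14 and 2 of 4 on GGA21. On GGA23 neither of the 2 stretches was next to the other, against 25% of adjoining pairs. As a result, 291 of the 521 intervals between consecutive stretches (55.9%) consisted of a single TAD. Another stretch lay within 1 Mb of 479 stretches (87.7%), but the same share was not computed for adjoining pairs.

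Stretches next to another stretch were also longer than the rest. Their median length was 200 kb, and 79 of the 419 (18.9%) reached 500 kb. The 127 stretches that stood alone had a median of 150 kb, and 12 of them (9.45%) reached 500 kb. Exactly 100 kb was measured for 31.5% of the stretches next to another and for 47.2% of those that stood alone.

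Runs of stretches with only 1 TAD between neighbours formed zones of several Mb. There were 16 runs of at least 6 stretches, on 7 chromosomes, and they held 126 stretches and 31.3% of the summed length. The run with the most members lay on GGA1 from 137600001 to 152600000, where 13 stretches of 100 to 800 kb alternated with 12 TADs over 15 Mb. Only 25.3% of this run lay outside TADs, since its TADs included one of 2050 kb and one of 5850 kb, and the larger TAD lay between stretches of 350 and 200 kb. On GGA2 a run of 11 stretches from 79450001 to 89250000 was of another kind. There, 84.2% of 9.8 Mb lay outside TADs, and the 10 TADs in between had a median size of 125 kb, with none above 300 kb. In order along the chromosome these stretches measured 100, 150, 450, 100, 850, 950, 600, 350, 2000, 1200 and 1500 kb, so the longest of them lay side by side at the far end. A run on GGA3 from 56450001 to 63650000 was sparser still. It held 6 stretches of 150, 1850, 1600, 200, 2050 and 550 kb, in 7.2 Mb of which 88.9% lay outside TADs, and its 5 TADs had a median of 100 kb.

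On GGA7 a run of 11 stretches from 23450001 to 35500000 covered 12.05 Mb, with 69.7% outside TADs. It held all 3 stretches of at least 1000 kb on this chromosome. The next runs by number were 10 stretches on GGA2 (66800001 to 74100000, 48.6% outside TADs), 9 on GGA3 (88800001 to 95750000, 41.7%) and 8 on GGA3 (67700001 to 73550000, 47.0%). On microchromosomes the run with the most members was that of 6 stretches on GGA18 from 800001 to 4000000, which held 67.2% of its 3.2 Mb outside TADs. The map of the runs shows both kinds, those made mainly of stretches and those in which large TADs alternate with short stretches.

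**Figure D3:**
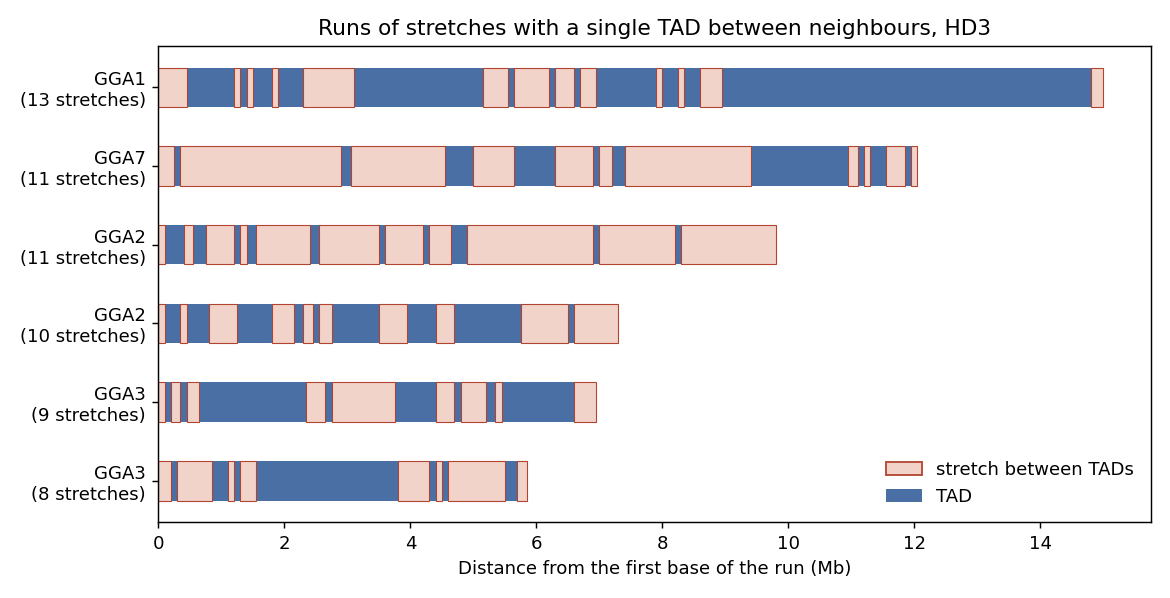
Map of the 6 runs with the most stretches, drawn to scale by distance in Mb from the first base of each run (x axis). Pale blocks are stretches between TADs and blue blocks are TADs. The run of 11 stretches on GGA2 is 84.2% outside TADs, and the run of 13 on GGA1 is 25.3% outside TADs.

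Between these zones lay long intervals without any stretch of at least 100 kb. Among intervals between 2 consecutive stretches, the longest was on GGAZ from 37600001 to 50200000, with 36 TADs over 12.6 Mb. Some chromosome ends held longer parts without a stretch. GGA1 held 2 intervals of 11.45 Mb, from 11300001 to 22750000 with 25 TADs and from 171450001 to 182900000 with 28 TADs. Of the 521 intervals between consecutive stretches, 40 held more than 10 TADs, whereas the median interval held 1 TAD and 400 kb.

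Few stretches were counted near the ends of the chromosome spans. A stretch has to lie between TADs and a span stops at the last TAD end. Sequence without TADs at the very tip of a chromosome therefore cannot count as a stretch. In the outermost 10% of the span at either end, 51 of 513 pairs were separated by a stretch (9.94 per 100), and in the remainder of the chromosomes this was 26.8 per 100. In other words, 9.34% of the stretches lay in this outer part, which holds 21.7% of all pairs. The number was 21.9 per 100 pairs between 10 and 20% of the span from an end and was between 26.5 and 30.4 farther inside. On 9 of the 10 macrochromosomes the outer part had the lower number, with means of 11.3 ± 7.26 in the outer and 25.9 ± 8.50 in the inner part (SD, n = 10). GGA5 was the exception, with 9 of 35 pairs in the outer and 24 of 120 pairs in the inner part. On the 13 microchromosomes with a stretch, the outer part was lower on 12, but their outer parts hold few pairs and 9 of them had no stretch there. GGA14 was higher at its ends, with 3 stretches among 9 outer pairs. Of the 24 stretches of at least 1000 kb, 1 lay in the outer part, namely the longest stretch on GGAZ.

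**Figure D4:**
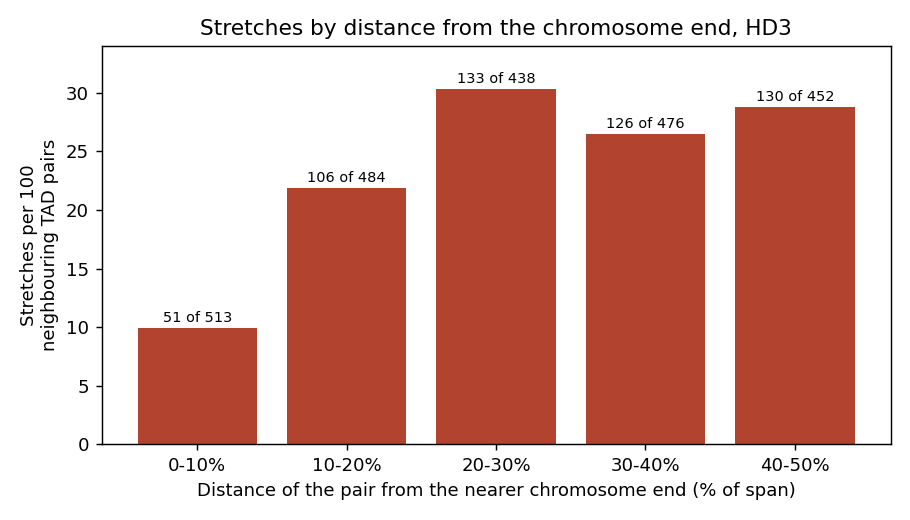
Stretches per 100 pairs of neighbouring TADs (y axis) by distance of the pair from the nearer chromosome end in percent of the span (x axis), over all 26 chromosomes. Labels give stretches of pairs; 51 of 513 pairs are stretches in the outermost class and 130 of 452 in the innermost.

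The distance from the start of a chromosome to its first stretch reached 18.8 Mb on GGA4, where 54 TADs came before it, and 15.75 Mb on GGAZ, where 42 TADs came before it. It was 9.95 Mb on GGA2, 7.75 Mb on GGA8 and 7.35 Mb on GGA7. On GGA1, in contrast, the first stretch began after 1.55 Mb and 6 TADs. At the far end, the last stretch lay 12.7 Mb from the last TAD end on GGA2, 9.25 Mb on GGA11 and 7.3 Mb on GGA10.

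TADs that flank a stretch were next compared with TADs that adjoin another TAD on both sides. At least 1 stretch bordered 801 TADs, and 1507 TADs adjoined on both sides. The median size was 200 kb in both classes. The means were 381 kb for flanking and 339 kb for adjoining TADs, with SDs of 498 and 414 kb over TADs, so the difference was small against the spread between TADs. The shape of the distribution differed, because both small and very large TADs made up larger shares beside stretches. A size of 100 kb was found for 257 flanking TADs (32.1%) against 362 adjoining TADs (24.0%), and a size of at least 1000 kb for 61 (7.62%) against 75 (4.98%). Sizes from 150 to 450 kb made up 45.8% of flanking and 58.8% of adjoining TADs. These shares are pooled over chromosomes, which differ in how many TADs of each class they hold. The share of at least 1000 kb was not compared within chromosomes.

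Among flanking TADs, the share of small ones was higher with a stretch on both sides than with a stretch on 1 side. The 291 isolated TADs had a median of 150 kb, and 121 of them (41.6%) measured 100 kb, yet 21 (7.22%) reached 1000 kb. The 510 TADs with a stretch on only 1 side had a median of 250 kb, with 26.7% at 100 kb and 7.84% at 1000 kb or more. A high share of small TADs was not particular to isolated TADs. Of the 81 TADs that flank no stretch but have a shorter gap or a chromosome end on at least 1 side, 34 (42.0%) also measured 100 kb. The largest isolated TAD was the one of 5850 kb in the run on GGA1. The sides of a stretch were alike, with a median of 200 kb for the TAD before and for the TAD after it, and 34.8% and 34.4% of them at 100 kb.

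**Figure D5:**
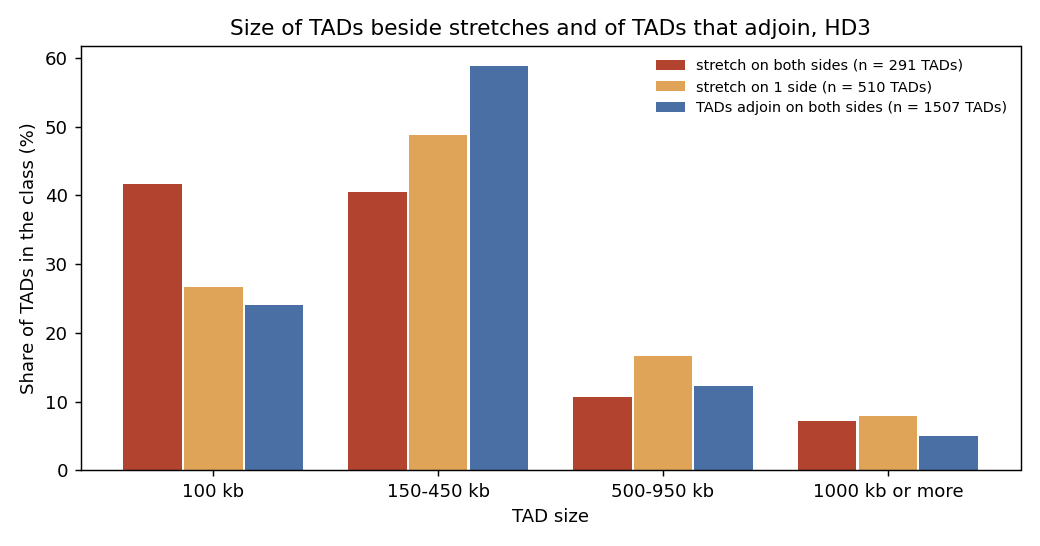
Share of TADs in percent (y axis) in each of 4 size classes (x axis), for TADs with a stretch on both sides (n = 291), with a stretch on 1 side (n = 510) and adjoining TADs on both sides (n = 1507). The share at 100 kb is 41.6%, 26.7% and 24.0% in these classes.

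Compared within chromosomes, the medians pointed in both directions. On the 23 chromosomes with at least 5 TADs of each class, the median of flanking TADs was smaller on 12, larger on 5 and equal on 6, and the difference averaged -14.1 ± 63.4 kb (SD, n = 23), so it was within the spread between chromosomes. It was -50 kb on GGA2, GGA3 and GGA4 and 50 kb on GGA1. The share of TADs of 100 kb was higher among flanking TADs on 18 chromosomes and lower on 4. The difference averaged 7.88 ± 14.7 percentage points and ran from -23.9 to 50, so its mean was also within the spread between chromosomes. On GGA2 the share was 34.4% against 20.8%, on GGA3 35.5% against 20.6%, and on GGA1 29.4% against 27.6%. GGA9, GGA10, GGA13 and GGA21 were those with a lower share beside stretches.

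TADs of 100 kb made up the smallest share beside the shortest stretches, without a steady change with length. Counting the TAD on each side of each stretch, 28.9% of the TADs beside stretches of 100 kb measured 100 kb themselves. The share was 34.3% beside stretches of 150 kb, 38.6% at 200 to 250 kb, 36.1% at 300 to 450 kb, 43.3% at 500 to 950 kb and 37.5% at 1000 kb or more. The last of these rests on 24 stretches. At least 1 TAD of 100 kb bordered 95 of the 192 stretches of 100 kb (49.5%) and 46 of the 67 stretches of 500 to 950 kb (68.7%). Large TADs did not follow this order, since TADs of at least 1000 kb made up 7.29% of those beside stretches of 100 kb and 9.79% beside stretches of 300 to 450 kb. By position from the nearest stretch, the share at 100 kb was 32.1% in the first and 22.7% in the second. It was 21.9% in the third, 19.0% in the fourth and 27.8% farther away. The medians were 200, 250, 250, 250 and 200 kb in this order. The first position includes the 291 isolated TADs, which have no second TAD between the same stretches. For the 510 TADs with a stretch on only 1 side, the share was 26.7% and the median 250 kb. The high share in the first position thus comes largely from the isolated TADs.

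Near the threshold, the first stretch of exactly 100 kb was found from 1550001 to 1650000 on GGA1, between TADs of 100 and 100 kb. On GGA2 it lay from 9950001 to 10050000, between TADs of 100 and 400 kb, and on GGA3 from 5650001 to 5750000, between TADs of 1000 and 1900 kb. Just below the threshold were gaps of 50 kb from 1200001 to 1250000 on GGA1, from 15450001 to 15500000 on GGA2 and from 350001 to 400000 on GGA3. Gaps below the threshold were rare, with 18 of 50 kb and 1 of 20 kb in the whole list, against 192 of 100 kb. No TAD in the list was smaller than 100 kb.

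The stretches were finally set beside the rearrangements that Hi-C maps revealed in HD3 cells. The same contacts gave both the breakpoints and the TADs, and the caller worked along unrearranged reference chromosomes, so an effect of a rearrangement on the calls and a property of the region cannot be told apart. Among the large translocations listed in the paper, GGA1, GGA3, GGA4 and GGA7 carry 9 breakpoints at least 1 Mb away from an end. Breakpoints nearer an end were left out. Those near the start of GGA6, GGA9, GGA13 and GGA17 lie in or next to the sequence before the first TAD. That sequence measures 500 to 700 kb there and cannot count as a stretch. A breakpoint within GGA28 was left out as well, since the list holds no TAD of GGA28. The paper also reports many smaller translocations and some intrachromosomal rearrangements, whose breakpoints were not counted here. Of the 9 breakpoints, 1 lay inside a stretch, and the others lay 910 to 3450 kb from the nearest one. Stretches hold 16.8% of the spans, and 9 breakpoints are too few for a comparison with that share. The breakpoint inside a stretch is the start of the centromere-proximal segment of the GGA4 long arm. It lay in the first stretch of GGA4, which measured 550 kb from 18800001 to 19350000, between TADs of 650 and 100 kb. The paper places the GGA4 breakpoint of the short arm translocation near the centromere. Whether this stretch holds centromeric or poorly assembled sequence was not analysed.

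Several rearranged segments held no stretch at all. In the GGA4 short arm segment, 0 of 47 pairs of neighbouring TADs were separated by at least 100 kb, against 35.5 per 100 pairs on the rest of GGA4. In the short arm segment of GGA7 that is joined to GGA5, this was 0 of 27 pairs, against 29.6 per 100 on the rest of GGA7, and the nearest stretch (7350001 to 7800000) began 1040 kb beyond it. Both segments lie at the start of their chromosome and reach beyond the outermost 10% of its span. Over all chromosomes, 9.94 per 100 pairs were stretches in the outermost 10% and 21.9 between 10 and 20% from an end. Whether the absence of stretches in these segments goes with their position was not tested. In the GGA2 region that lost coverage, which lies inside the chromosome, 0 of 33 pairs were stretches, against 34.7 per 100 on the rest of GGA2. A stretch of 400 kb, from 53900001 to 54300000, ended 25 kb before this region, and the next, of 1150 kb, began 665 kb after it at 62350001. The interval between these stretches held 36 TADs in 8.05 Mb. Long intervals without a stretch also occurred outside the segments named here. They held 36 TADs on GGAZ (37600001 to 50200000) and 28 TADs on GGA2 (10050001 to 20800000). Whether the absence of stretches is particular to rearranged segments was not tested. Of the 34 TADs that touch the region, 21 measured 100 kb, where 27.3% of all TADs in the list have this size. In the GGA1 segment joined to GGA2, 2 of 14 pairs were stretches (14.3 per 100, against 32.4 on the rest of GGA1), both of them of 150 kb. This segment lies within the outermost 10% of GGA1. In that outer part, counted over both ends of GGA1 and with the segment included, 9 of 87 pairs were stretches (10.3 per 100). Per Mb, the segment held 0.146 stretches, against 0.652 on GGA1. Whether the number in the segment goes with its position was not tested. The long arm of GGA4 differed from its short arm, with 25 of 74 pairs in its centromere-proximal and 29 of 71 in its centromere-distal segment. The share of sequence inside stretches was 18.4% and 35.2% in these segments, and the median length was 175 and 400 kb. How far read coverage or copy number move with these values was not tested, because contact numbers were not used.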

How the data were processed

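Hi-C libraries of HD3 cells were cut with DpnII. Reads were aligned to GalGal5 and filtered by the authors with Juicer tools (Juicer 1.6 in the submitters' processing notes), and Armatus was run by them on the pooled contacts of the replicates at a bin of 50 kb. The paper gives a range for its parameter γ. Which value within the range served each chromosome, and whether TADs were filtered, is not given in the sources used here. The deposited table holds 2389 TADs as start and end coordinates in bp, without contact numbers, so the number of contacts behind each TAD or stretch is unknown and precision is limited by the bin. Its repeated coordinate columns were identical, 0 TADs overlapped, and 1 TAD ended off a bin edge and was kept.

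TADs were sorted by chromosome and start, and gaps of at least 100 kb were taken as stretches. Neighbouring pairs, intervals between stretches, runs with 1 TAD between neighbours and TAD classes were counted with pandas 2.3.3 and numpy 2.4.6 under Python 3.11.15, intervals came from scipy 1.17.1, and figures were drawn with matplotlib 3.10.9. The counting of stretches, of TADs with a stretch on both sides, of single-TAD intervals and of runs was checked on 200 simulated TAD lists. All 200 were recovered exactly. In these lists the TADs began at the first base and lay on bin edges. The shares of pairs next to a stretch, positions and breakpoints were not part of this check. The stretches, the lists of regions and the alternatives were chosen with earlier results of these data known. Named are the 10 longest stretches, the longest on each of GGA1 to GGA10, the chromosomes with the highest and lowest share, the runs with the most stretches, stretches at a breakpoint and the first stretches and gaps at the threshold on GGA1, GGA2 and GGA3. Intervals without stretches, first and last stretches and other chromosomes were named after their values were seen. Breakpoints are those of the large translocations listed in the study that lie at least 1 Mb from an end, on chromosomes with listed TADs. Regions are those of the study. Because the rule used the same list, no test was run. Sequence and genes inside stretches were not analysed here, since the gene table at hand is on another assembly, and the A/B compartment profile and the contact maps were not used here.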

Additional observations from a re-analysis of the deposited data

How the results depend on the processing

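Of 32 alternatives over 7 results, 28 were planned and 4 were added after seeing the data. In 26 the value stayed within its interval, within 1 SD over chromosomes or within 1.5 times the count, and in 6 it moved. The number of stretches was 354 with a minimum of 150 kb and 271 with 200 kb, against 546, which follows from the threshold. The share of the spans inside stretches was 13.6% with a minimum of 200 kb and 23.0% when TADs under 150 kb were left out and their bins joined the stretches, against 16.8%. The share of stretches next to another was 76.7% in the main setting, where 546 of the 2363 pairs are stretches. It was 52.0% with a minimum of 200 kb, where only 271 of the 2363 pairs are stretches. The lower share is therefore not a measure of weaker clustering. It was 87.7% when another stretch within 1 Mb was asked for.

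The medians of flanking and adjoining TADs were equal under 5 alternatives, while the means differed by 42.2 kb and the median of the differences within chromosomes was -25 kb. The share of TADs of 100 kb was 8.06 percentage points higher beside stretches, and between 5.27 and 13.7 points higher under the 4 added alternatives. The share of stretches in the outer part of chromosomes was 12.4 points below that of all pairs (-12.4), and between -13.4 and -12.8 under its alternatives. Per Mb of span, macrochromosomes exceeded microchromosomes by 0.0383 stretches. No replicate could be left out, since the calls rest on the pooled contacts of both, and no paired analysis was possible because there is only 1 group, and the description of sequence inside stretches was not run. The bin of 50 kb sets the resolution of the lengths.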

Other observations

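Sequence before the first TAD of a chromosome is not a stretch between TADs and was left out of the counts above. It was absent on 21 of the 26 chromosomes, where the first TAD began at the first base. On the other 5 it measured 500 kb on GGA9, GGA10 and GGA17, 550 kb on GGA6 and 700 kb on GGA13, in total 2.75 Mb.

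TADs beside the 18 gaps of a single bin measured 100 to 950 kb. A gap on GGA2 (56200001 to 56250000) had TADs of 100 kb on both sides, and one on GGA10 (11200001 to 11250000) was followed by the TAD of 950 kb. The only gap of 20 kb, on GGA2 from 93830001 to 93850000, followed the TAD that ends off the bin grid.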
